A study of Mus musculus with 2 samples.

Results

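The genes described here are the 50 mouse protein-coding genes whose symbol starts with Psma, Psmb, Psmc, Psmd, Psme, Psmf or Psmg followed by a number, out of 21938 protein-coding genes in the GENCODE M21 annotation. They encode the subunits of the proteasome, its activators, its inhibitor and its assembly chaperones, and 1 of them, Psmc3ip, carries the name of a subunit without being one. Open chromatin was measured at their promoters by DNase-seq, in which DNase I cuts the DNA of nuclei wherever nucleosomes and proteins leave it exposed and the positions of the cuts are read by sequencing. The tissue was left cerebral cortex from male mice aged 2 months of the strain B6CASTF1/J, the first-generation cross of C57BL/6J with CAST/EiJ. There were 2 samples, biological replicates 1 and 2, and no other tissue, age, sex or treatment. No condition was therefore compared, no p-value is given, and each count of proteasome genes is set beside the same count over all coding genes.

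The proteasome is the large protease that degrades proteins tagged with ubiquitin. Its 20S core is a barrel in which outer rings of alpha subunits gate the entrance and inner rings of beta subunits cut the substrate, and its 19S cap uses a ring of ATPases to unfold substrates, held by a base and a lid that recognise and remove ubiquitin. In cells exposed to interferon the catalytic beta subunits can be exchanged for immunoproteasome subunits, whose products feed antigen presentation, while cortical thymic epithelium and testis have catalytic or alpha variants of their own. Neurons rely on the constitutive form for protein turnover at synapses.

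The promoter of a gene was taken as 500 bp to either side of each of its annotated transcription start sites (TSSs), and it counted as accessible if a peak of replicate 1 and a peak of replicate 2 fell in such windows. The height of a promoter is that of its tallest peak in the authors' units, whose scaling the files do not state. Percentiles rank a height among the 12324 accessible coding promoters of the same replicate. Because the tissue was analysed in bulk, fewer cells with an open promoter and a less open promoter in every cell cannot be told apart. The joined peak lists held 63928 peaks in replicate 1 and 76440 in replicate 2. Of 9 cortical neuron markers, 9 had a promoter peak in replicate 1 and 4 in replicate 2, and 9 of 9 had one in both when the longer deposited lists were used. Of 9 astrocyte and oligodendrocyte markers 7 were accessible, of 8 microglia markers 2 were, and none of 5 endothelial or of 7 T cell and B cell markers was. With the longer lists the astrocyte and oligodendrocyte count was 8, and the microglia, endothelial, and T cell and B cell counts did not change. Median heights of the accessible markers in replicates 1 and 2 were 3.01 and 2.39 for neurons. They were 1.09 and 0.702 for astrocytes and oligodendrocytes, and 1.94 and 1.36 for microglia.

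Nearly every proteasome gene had an open promoter in cortex. Of the 50 genes, 47 (94%) were accessible in both replicates, against a background of 56.2% of all coding genes. Open promoters are commoner among CpG-rich genes, and in the bins of similar CpG content that the 50 genes fell into the accessible share averaged 79.9%. All 31 genes of the constitutive 20S core and 19S cap were among them, and the shares in their CpG bins ran from 73.1% to 94.7% with a mean of 86.5%. So were the 7 assembly chaperones, the 3 immunoproteasome catalytic subunits, 4 of 5 activator genes, the inhibitor Psmf1 and Psmc3ip. The 3 genes without a peak were Psmb11, the catalytic subunit of the thymus, Psma8, the alpha subunit of the testis, and Psme2b, another gene named for the activator subunit Psme2. An FDR under 0.001 at a base of the window, taken from the authors' track of false discovery rates, picked out 47 of the 50 genes as well, against 57.1% of coding genes. Every one of the 47 also kept its call with the longer peak lists (61% of coding genes), with windows of 250 bp (54.5%) or 2000 bp (59.8%), where the peaks of both replicates had to overlap (55.8%), and with replicate 2 (57.1%) or replicate 1 alone (61.6%). Asking for a peak over a TSS itself left 45 of the 50 genes, against 45% of coding genes, and lost Psma5 and Psme3.

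**Figure D1:**
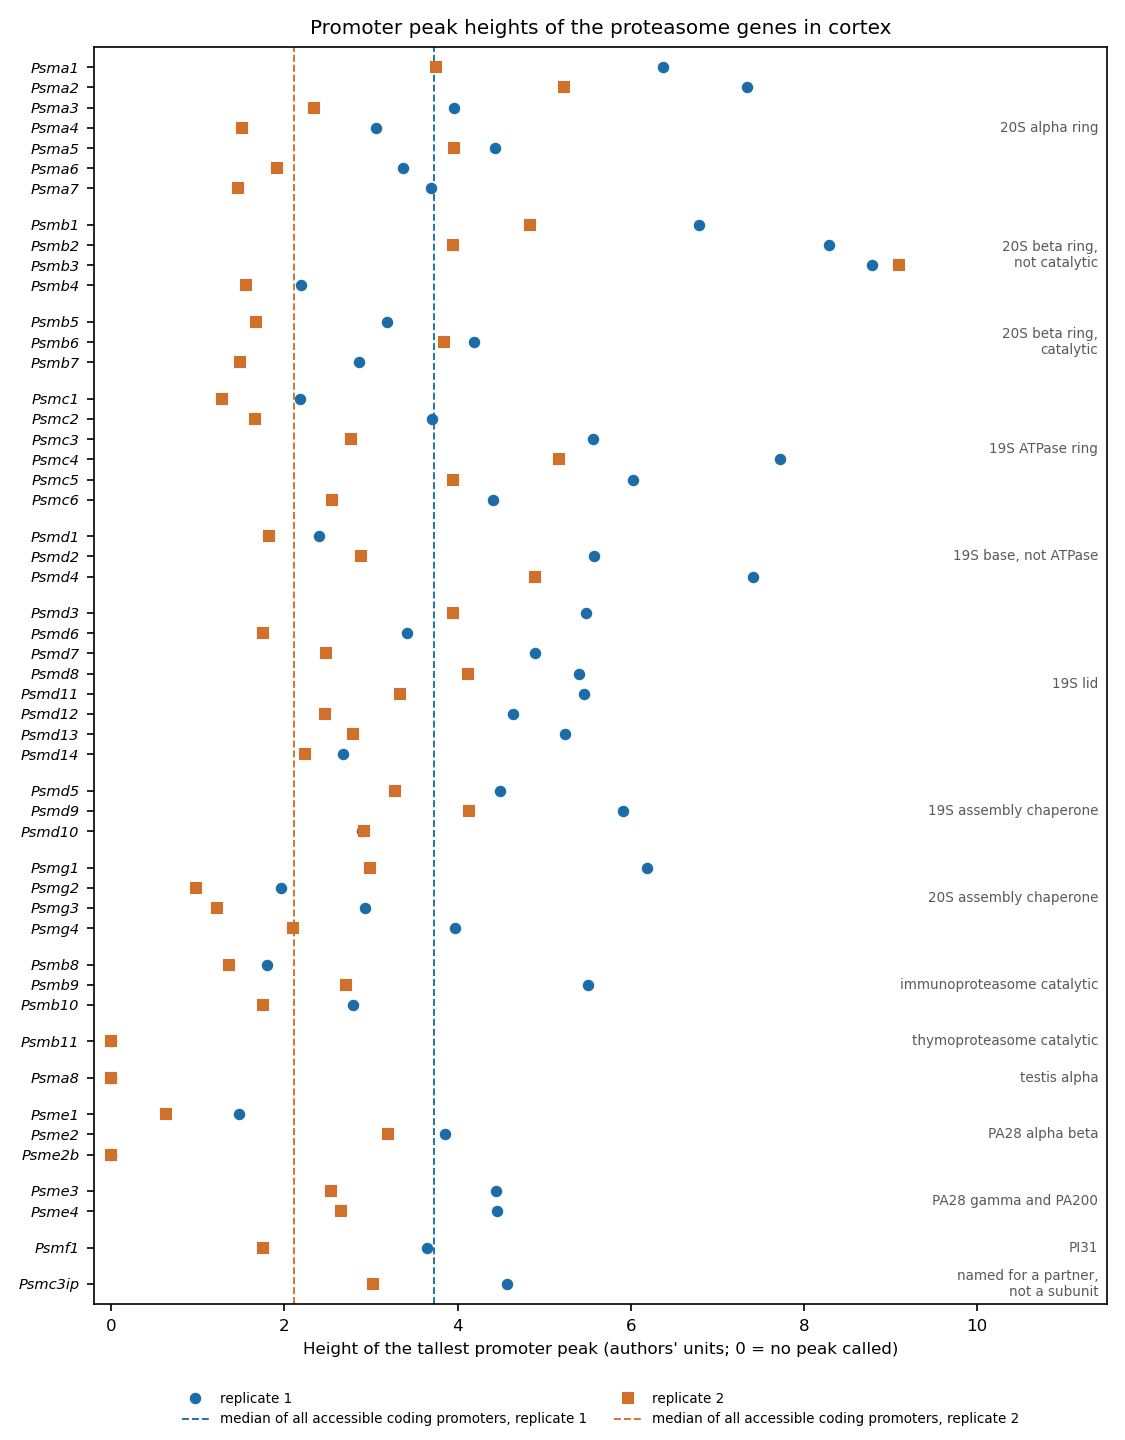
Height of the tallest promoter peak of each of the 50 genes, in the authors' units on a linear axis, with circles for replicate 1 and squares for replicate 2, grouped by role. Dashed lines are the medians of all accessible coding promoters, 3.73 in replicate 1 and 2.11 in replicate 2. Symbols at 0 mean that no peak was called, which holds for Psmb11, Psma8 and Psme2b in both replicates, where the square hides the circle.

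Open promoters of constitutive subunits were somewhat taller than the typical open promoter, with a wide spread among subunits. Their median height was 4.65 in replicate 1 and 2.77 in replicate 2, against 3.73 and 2.11 over all accessible coding promoters. Over those 12324 promoters the quartiles were 2.12 and 5.72 in replicate 1 and 1.17 and 3.55 in replicate 2. Of the 31 constitutive genes, 64.5% lay above the median in both replicates, against 44.6% of accessible coding promoters. The share above the 75th percentile in both replicates was 25.8%, that is 8 genes, against 20.3%. The core and the cap had medians of 4.08 and 5.25 in replicate 1 and of 3.05 and 2.77 in replicate 2, so their order was not the same in both.

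The 7 alpha subunits form the outer rings of the core, where their tails close the gate. Psma2 was the tallest, with heights of 7.34 in replicate 1 and 5.23 in replicate 2. Psma1 followed in replicate 1 at 6.37 and reached 3.75 in replicate 2. Psma5 measured 4.43 and 3.96, and Psma3 measured 3.96 and 2.34. The other 3 lay under the median of accessible promoters in both replicates. Psma7 had 3.69 in replicate 1 and 1.46 in replicate 2, Psma6 had 3.37 and 1.92, and Psma4 had 3.06 and 1.51. The group thus ran from the 40.4th to the 88.3rd percentile in replicate 1.

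Of the beta subunits that build the inner ring without cutting, 1 had the tallest promoter of the family. Psmb3 was the tallest of all 50 genes, with 8.79 in replicate 1 and 9.10 in replicate 2, at the 95.2nd and 99.5th percentiles. Psmb2 measured 8.29 and 3.94, and Psmb1 measured 6.79 and 4.83. Psmb4 stood apart from these 3, with 2.20 in replicate 1 and 1.55 in replicate 2. The peak of Psmb3 in replicate 1 was at chr11:97703181-97703440 (mm10), reaching from upstream of the gene into its start, and held 7 footprints in replicate 1 and 5 in replicate 2. A footprint is a short stretch within open chromatin that was cut less than its surroundings. The 198 bases upstream of the Psmb3 TSS (chr11:97703201-97703398, plus strand) are shown because they carry the tallest peak. Capitals mark the 83 bases that lay under a footprint in both replicates, and the letters are the C57BL/6J reference of GRCm38.p6 as distributed by RefSeq, from which the CAST/EiJ allele may differ.
Psmb3 promoter: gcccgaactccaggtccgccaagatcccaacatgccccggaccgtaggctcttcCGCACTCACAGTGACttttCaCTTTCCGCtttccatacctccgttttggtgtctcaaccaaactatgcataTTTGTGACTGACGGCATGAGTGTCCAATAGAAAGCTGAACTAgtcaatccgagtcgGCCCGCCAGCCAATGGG

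Both CCAAT boxes in that stretch, the letters bound by the trimeric factor NF-Y, lay under a footprint in both replicates. They were centred 48 and 6 bp upstream of the TSS.

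The 3 catalytic beta subunits of the constitutive core had lower promoters than the tallest of their structural partners. Psmb6, which cuts after acidic residues, measured 4.19 in replicate 1 and 3.84 in replicate 2. Psmb5, the chymotrypsin-like subunit and the main target of proteasome inhibitors, measured 3.19 and 1.67. Psmb7, the trypsin-like subunit, measured 2.86 and 1.49. Only Psmb6 was above the median of accessible promoters in both replicates.

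The ATPases of the cap, which unfold the substrate and push it into the core, differed widely in height. Psmc4 was the tallest at 7.72 in replicate 1 and 5.17 in replicate 2. It was followed by Psmc5 at 6.03 and 3.94 and by Psmc3 at 5.57 and 2.77. Psmc6 had 4.41 and 2.55, close to the middle of the group. Psmc2 fell under the median of accessible promoters with 3.70 and 1.66. Psmc1 had the lowest promoter of all 31 constitutive genes in both replicates, with 2.18 and 1.28. The ring is built from all 6 of these ATPases, and their heights spanned the 25.9th to the 90.4th percentile in replicate 1.

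The Psmc4 promoter also held more footprints seen in both replicates than any other member, with 8 in each replicate and 8 of the replicate 1 footprints overlapped in replicate 2. The 259 bases upstream of its TSS (chr7:28050102-28050360, minus strand) are shown for this reason, from the same reference, with capitals for the 99 bases under a footprint in both replicates.
Psmc4 promoter: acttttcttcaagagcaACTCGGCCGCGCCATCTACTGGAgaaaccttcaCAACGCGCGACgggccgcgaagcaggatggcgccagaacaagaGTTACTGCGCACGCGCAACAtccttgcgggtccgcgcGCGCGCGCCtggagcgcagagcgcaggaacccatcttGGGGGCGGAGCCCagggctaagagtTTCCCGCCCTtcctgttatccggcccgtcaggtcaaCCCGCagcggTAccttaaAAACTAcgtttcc

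Among the capitals is a match to the motif of the nuclear respiratory factor (NRF1), centred 155.5 bp upstream. That motif is GCGCA and GCGC with 1 free base between them. GC boxes on opposite strands, centred 87.5 and 61.5 bp upstream, are also among the capitals. GC boxes, GGGCGG, are the letters bound by SP and KLF factors.

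The base and lid of the cap hold the ubiquitin receptors, the scaffolds and the deubiquitinase. Psmd4, a ubiquitin receptor, was the tallest of the non-ATPase base subunits with 7.41 in replicate 1 and 4.89 in replicate 2. Of the scaffolds, Psmd2 measured 5.58 and 2.89, and Psmd1 measured 2.40 and 1.82. Psmd1 was under the median of accessible promoters in both replicates.

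The 8 lid genes spanned a narrower range than the ATPases or the base genes. Psmd3 measured 5.48 in replicate 1 and 3.95 in replicate 2, Psmd11 5.46 and 3.34, Psmd8 5.41 and 4.12, and Psmd13 5.25 and 2.79. Psmd7, the inactive partner of the lid's deubiquitinase, measured 4.89 and 2.48, and Psmd12 measured 4.65 and 2.46. These 6 promoters were above the median of accessible promoters in both replicates. Psmd6 was under it in both, at 3.41 and 1.75. Psmd14, the deubiquitinase that strips ubiquitin from the substrate, was the lowest of the lid in replicate 1 at 2.67, and at 2.24 it was above the median in replicate 2.

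Assembly chaperones hold partly built rings together and leave before the proteasome is complete. Of the chaperones of the cap, Psmd9 measured 5.91 in replicate 1 and 4.13 in replicate 2, Psmd5 measured 4.49 and 3.28, and the X-linked Psmd10, also known as gankyrin, measured 2.90 and 2.92. Of the chaperones of the core, Psmg1 was the tallest with 6.19 and 2.98. Its partner Psmg2 was the lowest, with 1.96 and 0.979, under the lower quartile of accessible promoters in both replicates. Psmg4 measured 3.97 and 2.10, and Psmg3, with which it pairs, measured 2.93 and 1.22. The peak of Psmg4 was 420 bp wide in both replicates, against a median width of 240 bp for accessible coding promoters in each.

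The immunoproteasome subunits had open promoters, and the heights of Psmb9 and Psmb10 lay within the range of the constitutive genes. Psmb9 measured 5.51 in replicate 1 and 2.71 in replicate 2, Psmb10 measured 2.79 and 1.76, and Psmb8 measured 1.80 and 1.36. Psmb8 lay at the 19.9th and 30.9th percentiles and was lower than every constitutive gene in replicate 1. It was lower in both replicates than Psmb5, the subunit it replaces, which had 3.19 and 1.67. Psmb9 was taller than Psmb6, its constitutive counterpart, in replicate 1 (5.51 against 4.19) and lower in replicate 2 (2.71 against 3.84). Psmb10 was close to its counterpart Psmb7, at 2.79 against 2.86 in replicate 1 and 1.76 against 1.49 in replicate 2. These Psmb10 heights are those of a peak inside the gene, downstream of its coding TSS. At the coding TSS itself Psmb10 had no peak in replicate 1 and one of 0.628 in replicate 2, lower than Psmb7. With 2 samples these orders are descriptions of the libraries.

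Psmb8 and Psmb9 lie in the major histocompatibility complex on chromosome 17 on either side of Tap1, the peptide transporter gene, with TSSs 10356 bp apart. The peak counted for Psmb9 (chr17:34187341-34187520 in replicate 1) was also in the window of Tap1, which has an annotated TSS on the other strand 30 bp from one of Psmb9, so its height belongs to both genes. That peak lay in sequence covered by annotated exons and reached the start of the Tap1 gene in replicate 2 only. It covered no TSS of a coding Psmb9 transcript in either replicate. The Psmb8 peak (chr17:34197561-34197780) had no such neighbour. The bases upstream of the Psmb8 TSS are shown because they hold the 1 footprint of its peak found in both replicates. A short stretch at the shared promoter is shown for a GC box in 1 of the 3 footprints found in both replicates there. The Psmb8 stretch is chr17:34197561-34197720 on the plus strand, between Tap1 and Psmb8, with capitals for the 22 bases under a footprint in both replicates. The Psmb9 stretch is chr17:34187370-34187395 on the minus strand, with capitals for a GC box that lay under a footprint in both.
Psmb8 promoter: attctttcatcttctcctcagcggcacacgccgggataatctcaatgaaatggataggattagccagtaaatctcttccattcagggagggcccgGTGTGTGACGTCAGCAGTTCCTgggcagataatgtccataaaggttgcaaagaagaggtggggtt
Psmb9 GC box: cgcgatgatgGGGCGGggcctcagtc

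**Figure D2:**
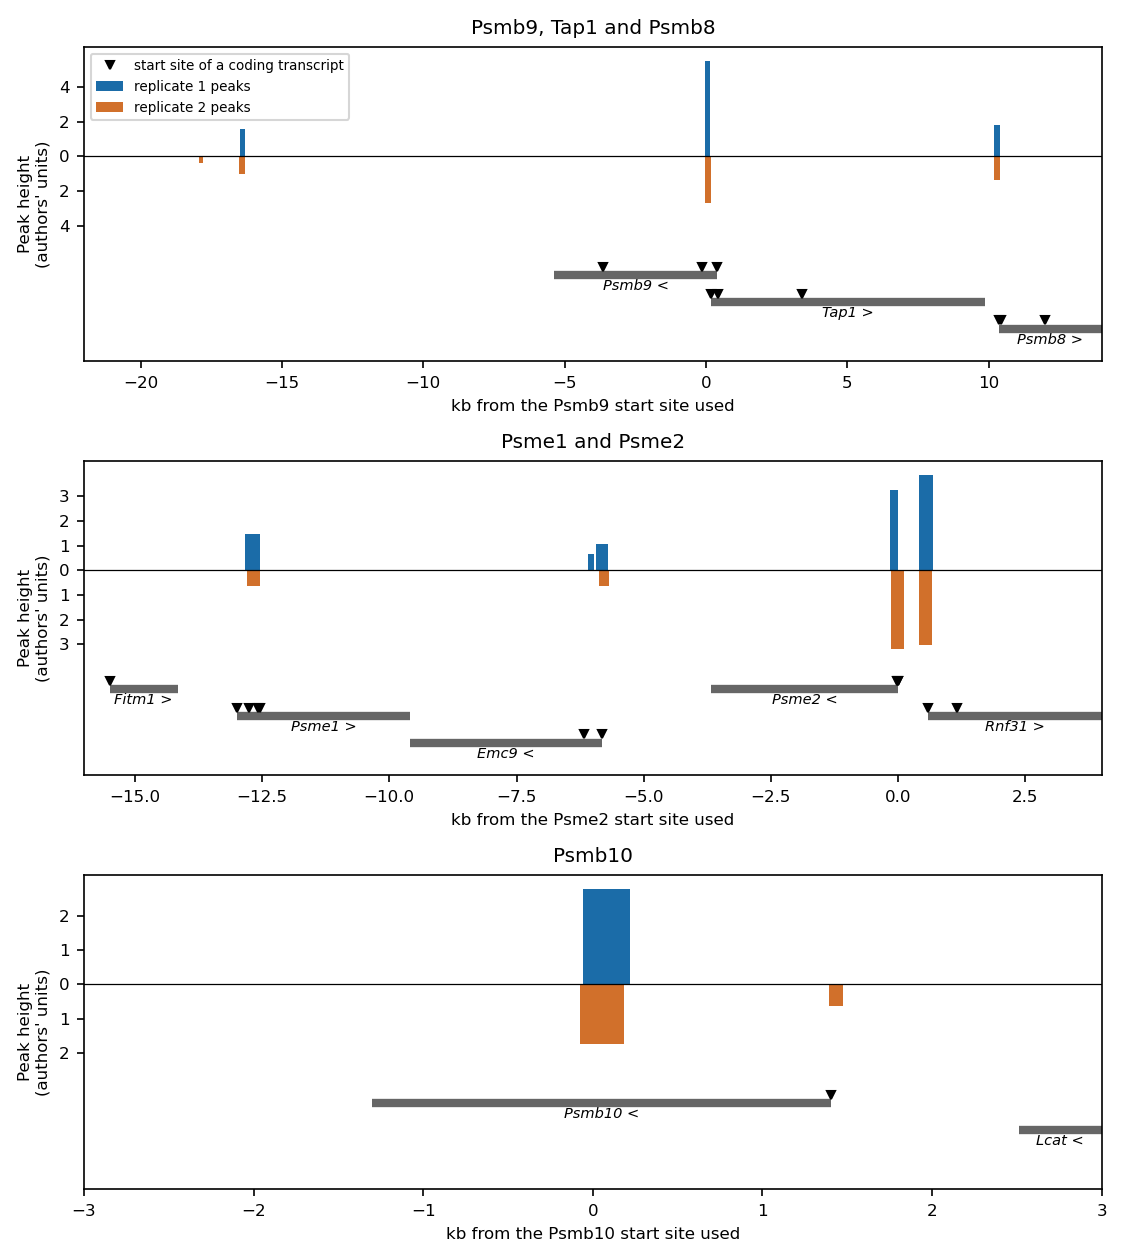
Deposited peaks at the Psmb9, Tap1 and Psmb8 locus, the Psme1 and Psme2 locus, and Psmb10, as bars from the joined lists with replicate 1 upward and replicate 2 downward, height in the authors' units against distance in kb from the TSS used. Grey bars are genes with their strand and triangles are TSSs of coding transcripts. The Psmb9 peak (5.51 and 2.71) lies within 500 bp of the start of Tap1 and reaches it in replicate 2, and the main Psmb10 peak (2.79 and 1.76) lies inside the gene.

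The open site of Psmb10 was not at the start of its coding transcript. The tallest peak, chr8:105936981-105937260 in replicate 1, was centred 1323.5 bp downstream of the coding TSS in replicate 1 and 1353.5 bp in replicate 2, at start sites annotated for noncoding transcripts of the gene. The coding TSS itself had no peak in replicate 1 and a peak of height 0.628 in replicate 2. With TSSs of coding transcripts only, Psmb10 was not accessible and 46 of 50 genes were, against 54.6% of coding genes.

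No peak was called at the 2 tissue-restricted subunits. Psmb11, which replaces Psmb5 in cortical thymic epithelium, lies on chromosome 14 with its TSS 3411 bp from that of Psmb5. The Psmb5 promoter was open in both replicates, and the window of Psmb11 held 0 bases with an FDR under 0.05 in either. Psma8, which takes the place of Psma7 in meiotic germ cells, lies on chromosome 18 and also had 0 such bases in both. The longer peak lists and a window of 2000 bp added a peak to neither gene. CpG content, given as the observed over expected frequency of CG, was 0.16 at Psmb11, in a bin of genes of similar CpG content of which 5.56% were accessible. At Psma8 it was 0.56, in a bin of which 73.1% were accessible, the same bin as Psmb8. Of 7 testis germ cell markers 1 was accessible, Dazl, at 1.90 and 1.16. Of 4 markers of thymic cortical epithelium 2 were, Ccl25 and Ly75. Ccl25 measured 8.29 in replicate 1 and 3.88 in replicate 2, at the 93.2nd and 79.1st percentiles. Ly75 measured 0.855 and 0.351, at the 4.55th and 0.949th percentiles. Whether the peaks of these markers are shared with a neighbouring gene was not examined.

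The activator PA28, a ring that opens the core without ubiquitin, is made of the interferon-inducible products of Psme1 and Psme2. Psme1 had the lowest promoter of all accessible members, with 1.47 in replicate 1 and 0.635 in replicate 2, at the 14.3rd and 7.96th percentiles. Its call was lost when only the upper part of each peak list by height was used, a setting that left 46 of 50 genes and 50.3% of coding genes. Psme2, whose TSS is 12708 bp from that of Psme1, measured 3.86 and 3.20. It had a pair of peaks. The peak over its TSS measured 3.27 in replicate 1 and 3.20 in replicate 2. A peak beyond it, which covered a coding TSS of Rnf31, measured 3.86 and 3.01 and gave the height of Psme2 in replicate 1. The tallest was therefore not the same peak in both replicates, which was so for no other accessible member.

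Psme2b had no peak and 0 bases with an FDR under 0.05 in both replicates. Its CpG observed over expected was 0.24, in a bin of which 15.2% were accessible. Of the 25-base words of its window, 82.1% occurred at more than 1 place in the reference, against under 25% for each of the other 49 genes, and how the authors treated reads with several matching places is not stated in the labels or files. The nuclear activator Psme3 measured 4.44 in replicate 1 and 2.54 in replicate 2. Psme4, the large activator known as PA200, measured 4.46 and 2.65. Psmf1, which encodes the inhibitor PI31, measured 3.64 and 1.76, and Psmc3ip, a meiotic recombination cofactor, measured 4.57 and 3.03.

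**Figure D3:**
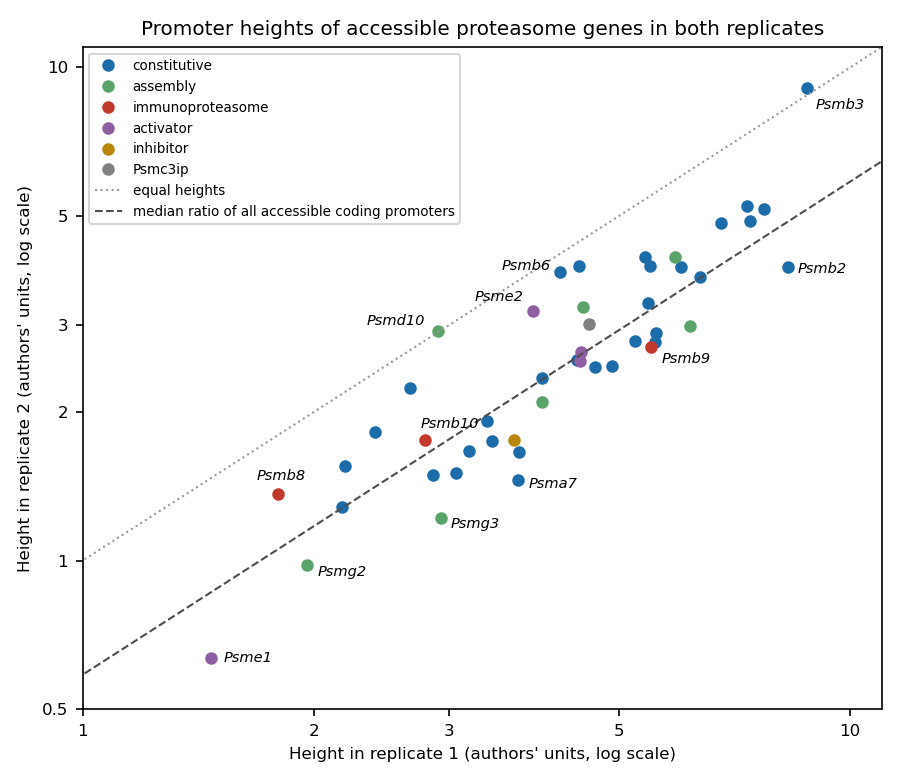
Height in replicate 2 against height in replicate 1 for the 47 accessible genes on log axes, 1 point per gene coloured by role. The dotted line marks equal heights and the dashed line the median ratio of all accessible coding promoters, a log2 ratio of -0.77. Psmb3 and Psmd10 lie on the dotted line and most other genes near the dashed one.

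The offset between the replicates was close to that of promoters at large. The median log2 ratio of replicate 2 over replicate 1 was -0.76 over the accessible members and -0.77 over all accessible coding promoters. Of the 47 members, 45 (95.7%) were lower in replicate 2, against 95.1% of accessible coding promoters. The exceptions were Psmb3, with a log2 ratio of 0.05, and Psmd10, with 0.01. The lowest ratio was that of Psma7, at -1.34, and the range between the 10th and 90th percentiles of all accessible promoters was -1.24 to -0.19. Of the 47 accessible members, 28 were above the median in both replicates, against 44.6% of accessible coding promoters. Another 16 were under it in both, for which the share over all accessible coding promoters was not computed.

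Several subunit promoters are shared with a neighbouring gene. For 12 of the 47 accessible members (25.5%) the tallest peak also lay in the promoter window of another coding gene, against 19.9% of accessible coding promoters. These pairs were Psma2 with Mrpl32, Psma4 with AY074887, Psma7 with Ss18l1, Psmb1 with Tbp, Psmc2 with Dnajc2, Psmc5 with Ftsj3, Psmd13 with Sirt3, Psmd10 with Atg4a, Psmg2 with Cep76, Psmg3 with Gm26938, Psmb9 with Tap1, and Psme2 with Rnf31. Mrpl32 encodes a mitochondrial ribosomal protein, Tbp the TATA-binding protein and Sirt3 a mitochondrial deacetylase. A coding TSS on the opposite strand lay within 1000 bp for 13 of the 50 members (26%), against 12.3% of all coding genes and 19.8% of accessible ones. The distance between the closest annotated TSSs was 32 bp for Psmc2 and Dnajc2, 75 bp for Psma2 and Mrpl32, and 137 bp for Psmb1 and Tbp. Besides genes already named, these were Psmd1 with Htr2b at 145 bp and Psmd5 with Cutal at 450 bp.

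Footprints were present in the tallest peak of all 47 accessible members in both replicates, against 97.7% of accessible coding promoters. Footprints of the replicates overlapped in 45 members (95.7%), against 88.1%. Psmg2 and Psme2 were the exceptions, and at Psme2 the tallest peaks of the replicates were different ones. At Psmg2 the peak over its TSS was the lower one, so its footprints were not counted. The mean number per peak was 4.81 in replicate 1 and 4.34 in replicate 2, against 5.03 and 4.26 over accessible coding promoters. Counting footprints of replicate 1 that overlapped one of replicate 2, the mean was 2.91 against 2.72. The immunoproteasome genes had 3 in replicate 1 and 6 in replicate 2 at Psmb9, 4 and 2 at Psmb8, and 3 and 1 at Psmb10.

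Of the bins of 50 bases, footprint coverage of the members was highest just upstream of the TSS. Over the 50 bases before the TSS, a base was under a footprint in 38.7% of members in replicate 1 and 36.0% in replicate 2, on average. Over all accessible coding promoters the values were 31.6% and 26.7%. Over the 50 bases after the TSS the averages were 27.1% and 24.1% for the members and 23.1% and 17.2% for all. From 51 to 100 bases before the TSS they were 32.8% and 26.6% against 28.2% and 23.5%. Farther out the members were above all promoters in replicate 1 and under them in replicate 2. The averages were 24.8% and 12.3% against 21.8% and 16.9% over the next 50 bases upstream, and from 51 to 100 bases after the TSS they were 20.9% and 8.47% against 17.7% and 10.1%.

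**Figure D4:**
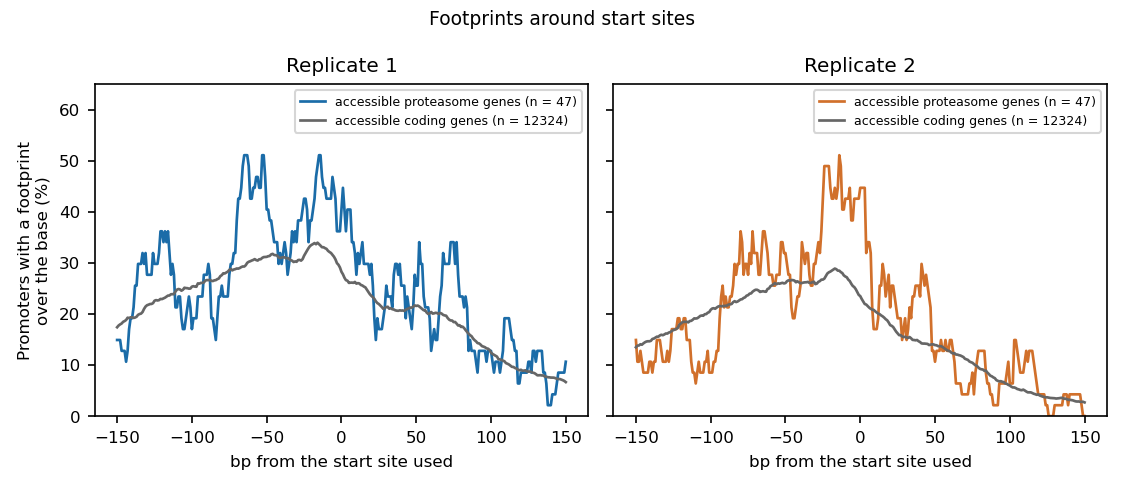
Share of promoters with a footprint over each base, in percent, against distance from the TSS used in bp, for the 47 accessible proteasome genes (coloured) and the 12324 accessible coding genes (grey), replicate 1 on the left and replicate 2 on the right. The coloured lines reach 51.1% in both replicates, where the grey lines stay at or under 33.9% and 28.9%.

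The sequences of these promoters were searched for exact matches to short motifs on both strands, within 500 bp of the TSS used for each gene. Of the 10 motifs, AAGATGGC, the letters bound by YY1, had the largest ratio of the share in constitutive subunit genes to that in all coding genes. It was found in 32.3% of the 31 constitutive genes, against 7.78% of all coding genes and 10.2% of accessible ones. None of the 5 inducible and tissue-restricted genes held it in the window searched, which at Psmb10 did not include the coding TSS. The letters TGACNNNGC, the antioxidant response element bound by NFE2L1 and NFE2L2, were found in 22 of 31 constitutive genes (71.0%), against 34% of all coding genes and 36.9% of accessible ones. NFE2L1 is the factor known to raise proteasome gene transcription when proteasome activity is low. Of the inducible and tissue-restricted genes, 2 of 5 held the element, and of all 50 genes 29 did. Within 250 bp the share of constitutive genes was 51.6%, against 22.4% of accessible coding genes.

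The ETS core CCGGAA was found in 67.7% of constitutive genes, against 35.2% of all coding genes and 50.6% of accessible ones. The motif of NRF1, the nuclear respiratory factor and not NFE2L1, was in 22.6% against 9.67% and 16.3%. The GC box was in 87.1% against 63.2% of all and 87.3% of accessible coding genes, and the CCAAT box in 67.7% against 69.7% and 66.4%, so both shares were close to those of accessible promoters. TATAAA, the TATA box, was in 19.4% against 30.5% and 18.9%, and CACGTG, the E-box, in 12.9% against 17.3% and 21.6%. The interferon-stimulated response element bound by IRF factors, GAAA repeated after 2 free bases, was in 22.6% of constitutive genes against 10.6% and 8.49%. Among the interferon-inducible genes it was matched in the windows of Psmb9, Psme1 and Psme2 and not in those of Psmb8 and Psmb10. The Psmb10 window lay around the TSS used, inside the gene and 1406 bp from its coding TSS, so the sequence at the coding TSS was not searched. TGACGTCA, the cAMP response element, was matched at Psmb2 and Psmb8 alone among the 50 genes, against 3.57% of coding genes. Matches of different motifs overlapped in few of these windows, a CCAAT box with the cAMP element at Psmb2, an ETS core with a GC box at Psma8, Psmb1 and Psme4, and a GC box with the antioxidant element at Psmd9.

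**Figure D5:**
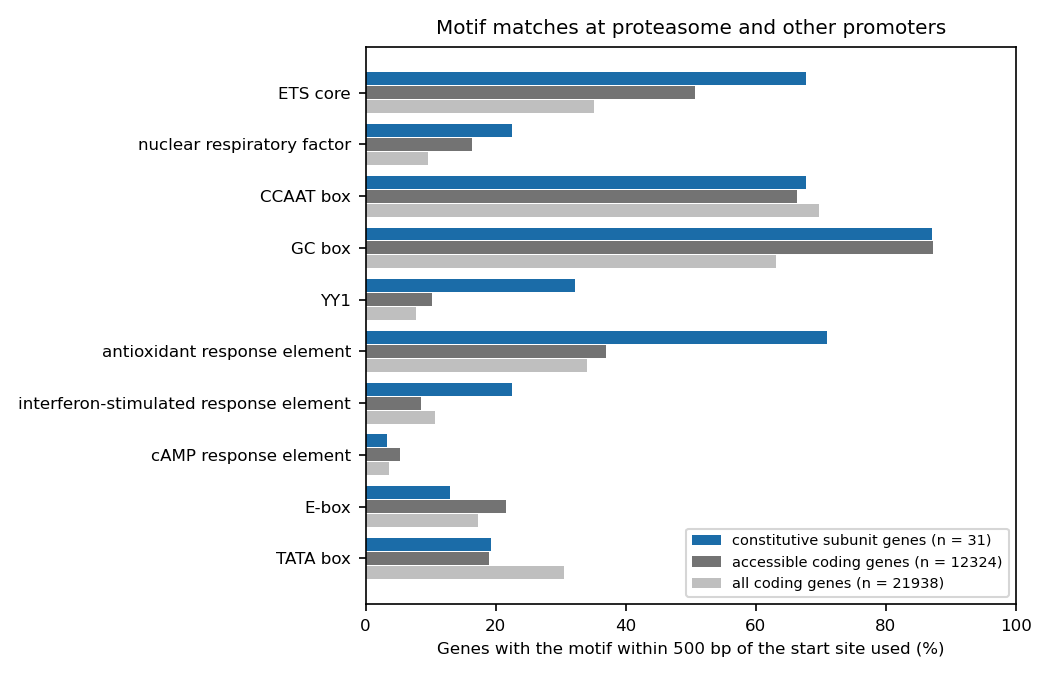
Share of genes, in percent, with an exact match to each of 10 motifs within 500 bp of the TSS used, for the 31 constitutive subunit genes, the 12324 accessible coding genes and all 21938 coding genes. The bars of the constitutive genes stand above both others for YY1 (32.3%), the antioxidant response element (71.0%), the ETS core (67.7%), the interferon-stimulated response element (22.6%) and the NRF1 motif (22.6%).

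Some of these letters lay at footprints, and a match counted as touched where it shared 1 bp or more with a footprint. Of the 10 antioxidant elements within the promoter peaks of members, 5 were touched by a footprint in both replicates, against 40.0% of such matches over all accessible coding promoters. Only those of Psmb5 and Psmd9 were covered over all 9 bases in both replicates, which was so for 11.2% of matches over all. At Psmb6 footprints covered 4 of the 9 bases in each replicate, and at Psmb2 and Psma3 they reached only 3 in replicate 1 and 1 in replicate 2. The 5 elements are shown with the motif in capitals, on the strand of the match, because a footprint touched them in each replicate. The stretches are chr12:70974723-70974751 (minus) for Psma3, chr4:126677619-126677647 (plus) for Psmb2, chr14:54618024-54618052 (minus) for Psmb5, chr11:70525338-70525366 (plus) for Psmb6 and chr5:123228149-123228177 (plus) for Psmd9.
Psma3: ctcatggtgcTGACCCGGCaggccgcgga
Psmb2: gccgcgccagTGACTGGGCcgtcgcgcgt
Psmb5: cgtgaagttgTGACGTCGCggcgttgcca
Psmb6: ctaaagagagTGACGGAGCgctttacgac
Psmd9: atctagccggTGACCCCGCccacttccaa

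All lay close to the start of the gene. The element was centred 27 bp upstream of the TSS at Psmd9, 16 bp at Psmb5 and 15 bp at Psmb6, and 3 bp downstream at Psmb2 and 66 bp at Psma3. The elements of Psmb5 and Psmb6 are at catalytic subunits of the core.

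The cAMP elements of Psmb2 and Psmb8 were wholly covered by footprints in both replicates, as were 69.2% of the elements in peaks of accessible coding promoters. They were centred 19.5 bp upstream of the TSS at Psmb2 (chr4:126677597-126677624) and 56.5 bp upstream at Psmb8 (chr17:34197651-34197678), and are shown on the plus strand with the motif in capitals.
Psmb2: tcgcgagaggTGACGTCAttgggccgcg
Psmb8: gcccggtgtgTGACGTCAgcagttcctg

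Of the 6 NRF1 matches within member peaks, 5 were wholly covered by footprints in both replicates, against 58.1% over all accessible coding promoters. They were at Psma2, Psma4, Psmc4, Psmc5 and Psmg1, and at Psmd14 the match was touched by a footprint in replicate 1 only. Of the 4 YY1 matches within member peaks, those of Psmc5 and Psmd7 were touched by a footprint in both, against 32.9% over all. The match of Psmd7 was wholly covered in both, and that of Psmc5 over 7 of 8 bases in replicate 1 and 3 in replicate 2. The Psmc5 match lay 37.5 bp downstream of the TSS and the Psmd7 match 68.5 bp upstream. These Psmc5 and Psmd7 stretches, at chr11:106256178-106256205 (plus) and chr8:107588519-107588546 (minus), are shown for comparison with the YY1 letters in capitals.
Psmc5: cgagagagggAAGATGGCgcttgatggg
Psmd7: tccctttctcAAGATGGCgcccctggcg

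At Psmb3 the interferon-stimulated letters, 123.5 bp upstream, were the only such match of 5 in member peaks that was touched by a footprint in both replicates, against 24.1% over all accessible coding promoters. Footprints covered 9 of its 10 bases in replicate 1 and 7 in replicate 2. Of 36 ETS cores in member peaks, 11 (30.6%) were touched by a footprint in both replicates, against 32.8% over all accessible coding promoters. The same held for 32 of 49 GC boxes (65.3%) against 55.7%, and for 8 of 19 CCAAT boxes (42.1%) against 22.8%. For E-boxes it was 0 of 2 against 35.7%, and for TATA boxes 0 of 2 against 31.7%. A match is a string of letters and was not tested for binding by the factor named.

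Selected other genes of the ubiquitin and proteasome pathway also had open promoters. Of 33 such genes, 32 were accessible, against the 56.2% of coding genes, and 28 were when a peak had to cover a TSS itself, against 45%. All 8 genes listed under other subunits and maturation were, though not all of them are subunits or maturation factors. Zfand2a was the tallest of these, at 8.83 in replicate 1 and 7.26 in replicate 2. Of 7 ubiquitin genes and activating enzymes 6 were, with the polyubiquitin gene Ubb the tallest at 9.12 and 7.16. The exception was Uba7, the activating enzyme for the interferon-induced modifier ISG15, which had peaks of 0.553 and 0.385 in the longer lists only. All 9 genes of substrate delivery were accessible, led by the ubiquitin receptor Rad23b at 12.9 and 6.87. All 9 regulators of proteasome genes were. Nfya, a subunit of NF-Y, was the tallest in replicate 1, at 11.4 and 7.43, and Nfe2l1 in replicate 2, at 7.56 and 7.46.

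Among 12 genes of antigen presentation and interferon regulation, which work with the immunoproteasome, 11 were accessible, against 56.2% of coding genes. The peak of Tap1, which is among them, is the one also counted for Psmb9. The median height of the 11 was 2.84 in replicate 1 and 1.29 in replicate 2. The medians over all accessible coding promoters were higher, at 3.73 and 2.11. Tapbp, the chaperone of peptide loading, was the tallest in replicate 1, at 5.87 and 4.09, and Stat2, a transducer of interferon signals, in replicate 2, at 5.63 and 4.40. The gene without a peak was Ciita, the master regulator of MHC class II genes.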

How the data were processed

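DNase-seq libraries of left cerebral cortex from 2 samples of 1 group were analysed. The authors deposited, per replicate, 2 peak lists with a height per peak, a signal in their own units, on mm10 per the labels. The shorter list was used, and overlapping peaks were joined with the highest height kept. The deposited FDR track lists stretches with a false discovery rate (treated as a p-value) under 0.05, and the value column of the deposited footprint lists holds 1 constant, so footprints were used as positions. The aligner, the callers and the scaling were not given in the sources used here. Sequencing depth is unknown, so no interval that needs it is given.

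Genes came from GENCODE M21 and sequence from GRCm38.p6. The TSS used for a gene is the one nearest its tallest peak. Genes were ranked in 20 bins of CpG observed over expected. Footprints and peaks were matched by an overlap of 1 bp or more. Python 3.11.15, numpy 2.4.6, pandas 2.3.3 and matplotlib 3.10.9 were used, and the overlap code was tested on simulated data. The members and all gene lists were chosen with earlier results of these data known. By rule, every member was named with its call, with heights for all members outside the constitutive groups and at least the tallest and lowest of each constitutive group, and of the pathway lists the tallest gene and every gene without a peak.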

Additional observations from a re-analysis of the deposited data

How the results depend on the processing

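No paired analysis was possible because the 2 samples form 1 group. Of the 50 genes, 45 to 47 were accessible under every setting tried: the longer lists, the upper part of each list, windows of 250 and 2000 bp, coding TSSs only, the same peak in both replicates, a peak over a TSS itself, and either replicate alone. With replicate 1 or replicate 2 left out, the counts stayed at 47 members and 31 constitutive genes, while all coding genes ranged from 12529 to 13503. The median constitutive height, 3.82 as the geometric mean of both replicates, ranged from 2.77 to 4.65 and that of all coding genes, 2.80, from 2.08 to 3.38. Within 250 bp, members with a CCAAT box numbered 18 in place of 30, while all coding genes went from 69.7% to 47.9%. Members with a TATA box numbered 6 in place of 12, while all coding genes went from 30.5% to 15.1%. Whole coverage of a motif by footprints, an alternative chosen after seeing the data, left 2 of 5 antioxidant elements, 1 of 2 YY1 matches, 0 of 1 interferon-stimulated elements, 5 of 11 ETS cores and 4 of 8 CCAAT boxes of the members. Over all accessible coding promoters the shares fell too, from 40.0% to 11.2% for antioxidant elements and from 32.9% to 7.75% for YY1. They went from 24.1% to 0.73% for interferon-stimulated elements, from 32.8% to 11.4% for ETS cores and from 22.8% to 9.25% for CCAAT boxes. Wholly covered member matches made up 20%, 25%, 0%, 13.9% and 21.1% of those in peaks, in the same order. Foxo4 lost its call with a window of 250 bp. The unknown depth limits what a missing peak shows.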
